A study of Mus musculus with 8 samples.

Results

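A set of 3 miRNAs known from squamous epithelium, mmu-miR-205, mmu-miR-203 and mmu-miR-31, were followed across the cell populations of the mouse thymus. The members were chosen by name, as the 3 probes with these symbols among the 1040 mouse miRNA probes of the deposited table, and read on all 8 microarrays. miR-205 was highest in medullary thymic epithelial cells (mTECs), intermediate and uneven in cortical thymic epithelial cells (cTECs), and near background in CD45+ cells. miR-203 was well above background in mTECs alone. The miR-31 signal, in contrast, was higher in CD45+ cells than in mTECs and was not well above background in cTECs. With the main floor for dim signals, described below, its difference between mTECs and CD45+ cells did not pass (limma adjusted p = 0.306). With a lower floor it did (limma adjusted p = 0.00345). By signal, the 3 were thus not all highest in the same population.

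The study asked which miRNAs differ between mTECs and the other populations of the thymus. RNA came from 4-week-old wildtype females of the NOD strain, which develops autoimmune diabetes, and each isolation drew on a pool of 10 to 12 thymi. All cells were sorted by flow cytometry: cTECs as CD45-, EpCAM+, MHC II+ and Ly51+, mTECs by the same markers but Ly51-, and CD45+ cells as EpCAM-. There were 3 CD45+, 2 cTEC and 3 mTEC preparations, described as biological replicates, each labelled with Cy3 and hybridized to 1 of the 8 arrays of a single slide. The labels give no genotype but wildtype and no treatment for any group.

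miRNAs are short RNAs that pair with target mRNAs through a seed near the 5′ end and lower their translation and stability. miR-205 is a marker of stratified epithelium, where it targets ZEB1, ZEB2 and the phosphatase SHIP2, and miR-203 is switched on as keratinocytes leave the basal layer, where it represses the stem cell factor p63. miR-31 is studied in hair follicle and corneal epithelium, where it targets FIH-1, and also in T cells, where it targets Foxp3, the factor that defines regulatory T cells.

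The mature sequences are shown because the probes read exactly these strands and because the seeds tell whether another miRNA could pair with the same seed sites. A miRNA with another seed can still act on the same mRNA at a different site. They are given 5′ to 3′ as in RefSeq, with the seed, bases 2 to 8, in capitals.
miR-205-5p: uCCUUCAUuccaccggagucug
miR-203-3p: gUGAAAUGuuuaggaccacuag
miR-31-5p: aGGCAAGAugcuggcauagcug
All 3 members and their 3 opposite strands were matched to RefSeq. Each member is 22 bases long, with 12 G or C bases in miR-205, 9 in miR-203 and 12 in miR-31, and each probe is complementary to the mature strand over its whole length. None of the 3 seeds is shared with any of 1678 other mouse mature miRNAs of RefSeq. The longest run of bases that a member has in common with another of these miRNAs is 8 for miR-205, 8 for miR-203 and 9 for miR-31, and among the 3 members it is at most 4.

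Each member is cut from a hairpin that holds a second strand, called the star strand, for which the arrays also carry a probe. The hairpins show which arm was measured. They are given in the direction of transcription on build GRCm38.p6, with the measured arm in capitals.
Mir205: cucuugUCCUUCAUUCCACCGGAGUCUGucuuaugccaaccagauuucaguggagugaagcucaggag
Mir203: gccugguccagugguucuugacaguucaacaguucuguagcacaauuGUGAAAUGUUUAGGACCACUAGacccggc
Mir31: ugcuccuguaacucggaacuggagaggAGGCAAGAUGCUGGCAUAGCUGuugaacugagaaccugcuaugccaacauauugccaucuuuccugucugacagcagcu
Mir205 lies at chr1:193507463-193507530 on the minus strand, inside the long noncoding RNA gene Mir205hg. Mir203 lies at chr12:112130880-112130955 on the plus strand, and an annotated miRNA gene, Gm51289, overlaps it. Mir31 lies at chr4:88910557-88910662 on the minus strand, inside the long noncoding RNA gene Gm49890. miR-203 is the 3′ arm of its hairpin, while miR-205 and miR-31 are 5′ arms.

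Signals are the scanner's background-subtracted intensities, averaged over the 5 spots of a probe and scaled so that the arrays share the 75th percentile of the 65 mouse miRNAs well above background on all 8 arrays. The CD45+ and mTEC sorts were recognizable by their miRNAs, though detection overlapped. All 6 lymphocyte miRNAs of a fixed list (such as miR-181a and miR-150) were well above background on all CD45+ arrays, and all 5 miR-200 family members, which mark epithelium, on all mTEC arrays. However, 4 of the 6 lymphocyte miRNAs were so on all mTEC arrays too, and 2 of the 5 miR-200 family members on at least 1 CD45+ array. On the cTEC arrays only 2 of these 5 were so on both and 4 on at least 1. Of the 6 lymphocyte miRNAs, 3 were so on both cTEC arrays and 4 on at least 1. The cTEC arrays were dimmer: 98 to 122 mouse probes were well above background there, against 169 to 229 on CD45+ and 236 to 325 on mTEC arrays, and the lowest signal well above background after scaling was 342 and 621 on the cTEC arrays against 67.0 to 223 on the others. The number of arrays limits the precision, since with 3 against 3 the smallest p of an exact permutation test is 0.1.

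The scaled signal of miR-205 was 9958, 11519 and 13578 on the mTEC arrays. The cTEC arrays gave 3856 and 997. All CD45+ arrays were far lower, at 99.6, 92.4 and 88.3. The 3 groups did not overlap, and the lowest mTEC array was 2.58-fold above the highest cTEC array. All 15 mTEC spots were well above background, as were 9 of 10 cTEC spots and 4 of 15 CD45+ spots, which made 1 of the 3 CD45+ arrays pass by most of its spots. The spots of one array differed little in mTECs, with a coefficient of variation between 1.98% and 4.46%, and the coefficient of variation over the mTEC preparations was 15.5%. A lower limit of a fold was taken by raising each dim signal, where it was under the lowest signal well above background on the same array, to that limit. By this measure cTECs had at least 17.1-fold more miR-205 than CD45+ cells with both cTEC arrays, 8.68-fold without cTEC replicate 1 and 33.5-fold without replicate 2.

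**Figure D1:**
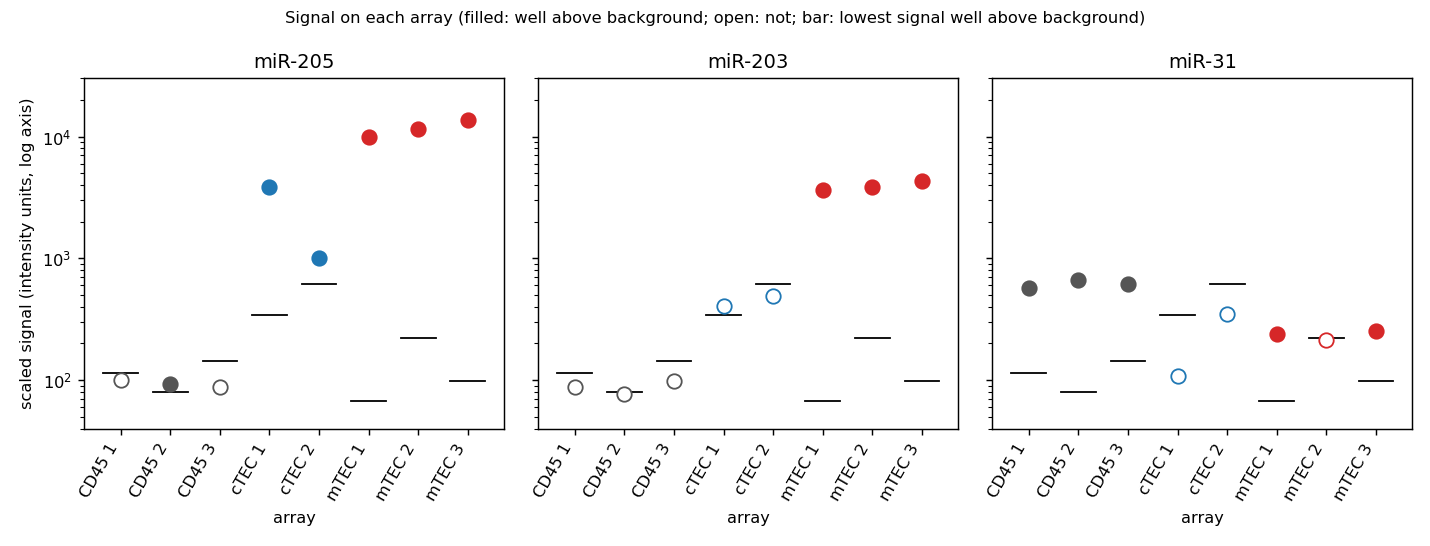
Scaled signal (intensity units, log axis) of miR-205, miR-203 and miR-31 on each of the 8 arrays. Filled points are arrays with most spots well above background, open points the others, and short bars the lowest signal well above background on that array. miR-205 steps down from mTECs to cTECs to CD45+ cells, miR-203 is filled in mTECs alone, and miR-31 is highest on the 3 CD45+ arrays at 570 to 668.

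Between the cTEC preparations miR-205 differed 3.87-fold. Of the 79 mouse miRNAs well above background on both cTEC arrays, 0 had a higher ratio of replicate 1 to replicate 2, whose median was 0.787 and whose quartiles were 0.620 and 1.14. A difference of nearly this size was not particular to miR-205: the lymphocyte miRNA miR-181a had 3615 against 961 and the mesenchyme miRNA miR-143 3842 against 1164. Of the fixed lists of cell type miRNAs, 4 had a higher summed signal on replicate 1: mesenchyme (5 miRNAs, 5117 against 2232), endothelium (2 miRNAs, 2755 against 1527), lymphocytes (6 miRNAs, 5861 against 4103) and the miR-200 family (4358 against 2956). The myeloid and red cell lists were lower there: the myeloid miRNA miR-223 had 137 against 597, and the 2 red cell miRNAs 198 against 940, none of these well above background. Also higher on replicate 1 were 2 lists described below: 8 epithelial miRNAs including the miR-200 family (4848 against 4119) and 8 squamous ones (13160 against 7759). The part of all these lists in the difference was not tested.

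Differences were tested with limma, fitting the means of all 3 groups at once, over 309 mouse miRNAs that 2 or more arrays had measured well above background, with Benjamini-Hochberg adjustment over all 309. Since many background-subtracted signals were 0 or less, scaled signals under a floor were set to it. Each array has a lowest signal that still counts as well above background, and the highest of these 8 limits, 621, was the floor; a fold change against a group at the floor understates the difference. A second fit took their median, 129, as the floor. In bulk samples such as these, fewer cells of a type and less RNA per cell cannot be told apart.

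With the floor of 621, the log2 fold change of miR-205 between mTECs and CD45+ cells was 4.22 (95% interval 3.03 to 5.41, limma adjusted p = 9.90e-04). Between cTECs and CD45+ cells it was 1.64 (0.31 to 2.97, limma adjusted p = 0.0741), and between mTECs and cTECs 2.58 (1.25 to 3.91, limma adjusted p = 0.0176). With the floor of 129 these became 6.47, 3.89 and 2.58, with limma adjusted p of 6.43e-06, 2.16e-04 and 0.00408, so that the difference between cTECs and CD45+ cells passed. The cTEC arrays lay in different rows of the slide, and within a row the mTEC arrays exceeded the cTEC array by 1.37 in row 1 and 3.68 in row 2 on the log2 scale. Without mTEC replicate 2 or 3 the call between mTECs and cTECs was lost at the floor of 621 (limma adjusted p = 0.0559 and 0.0541), and the fold change was 1.59 without cTEC replicate 2 and 3.57 without cTEC replicate 1. Under 4 other settings the contrast did not pass either, with a limma adjusted p of 0.0639 under the replicate block, 0.0932 when just these groups were fitted, 0.0706 when arrays were scaled to the percentile of every mouse probe and 0.0710 when dim probes were kept.

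miR-203 gave scaled signals of 3631, 3840 and 4356 on the mTEC arrays. Those of the cTEC arrays were 405 and 489, and those of the CD45+ arrays 87.9, 76.6 and 99.1. The groups did not overlap, yet neither cTEC array had most of its spots well above background (3 of 9 spots, with 1 outlier spot left out) and none of the CD45+ arrays did (2 of 15 spots). mTECs had at least 35.9-fold more miR-203 than CD45+ cells and at least 7.83-fold more than cTECs.

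For miR-203, too, mTECs stood above both other populations. With the floor of 621 the log2 fold change was 2.66 against CD45+ cells (95% interval 2.50 to 2.82, limma adjusted p = 3.04e-06) and 2.62 against cTECs (2.44 to 2.80, limma adjusted p = 6.37e-06). That floor lies above the mean signal of miR-203 on every CD45+ and cTEC array and so lowers the fold: at the floor of 129 the values were 4.89 (4.48 to 5.31, limma adjusted p = 5.71e-07) and 3.21 (2.75 to 3.68, limma adjusted p = 2.54e-05). Over the other processing settings they ran from 1.42, with the deposited table, to 5.53 against CD45+ cells and from 1.37 to 4.39 against cTECs. Within slide rows 1 and 2 it was 2.52 and 2.66 against cTECs, with both cTEC signals under that floor. The higher signal on cTEC than on CD45+ arrays was 0.038 at the floor of 621 (limma adjusted p = 1) and 1.68 at the floor of 129 (limma adjusted p = 1.77e-04). In that last fit the median over all 309 miRNAs was itself 0.65. Neither group had miR-203 well above background on most spots of any array, so that these fitted values set unmeasured signals against each other and give no size of a difference between cTECs and CD45+ cells.

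miR-31 had scaled signals of 570, 668 and 617 on the CD45+ arrays, where all 15 spots were well above background. On the mTEC arrays it had 238, 213 and 253, with 11 of 15 spots and 2 of 3 arrays well above background, and on the cTEC arrays 107 and 347, with 0 of 10 spots. Every CD45+ array was above every mTEC array, by 2.26-fold for the nearest pair, and above both cTEC arrays. The group means were 618 ± 48.8 (SD, n = 3) in CD45+ cells and 234 ± 20.3 (SD, n = 3) in mTECs. Since mTEC replicate 2 was not well above background, a lower limit of the fold is given, which was 2.60. Against the cTEC arrays, whose limits lie at 342 and 621, CD45+ cells had at least 1.34-fold more. This limit rests on cTEC replicate 1: it was 1.80-fold without replicate 2, and against the limit of replicate 2 alone CD45+ cells showed no excess.

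The test of miR-31 depended on the floor, which at 621 lies between its CD45+ values and above all of its TEC values. With that floor the log2 fold change was -0.061 between mTECs and CD45+ cells (95% interval -0.14 to 0.014, limma adjusted p = 0.306), -0.061 between cTECs and CD45+ cells (limma adjusted p = 0.288) and 0 between mTECs and cTECs. With the floor of 129, miR-31 was lower in mTECs than in CD45+ cells, with a log2 fold change of -1.43 (95% interval -2.06 to -0.79, limma adjusted p = 0.00345). For cTECs the floor of 129 lies under the limits of both arrays, so that the fitted values rest on signals not told from background. Against CD45+ cells they were -1.50 (limma adjusted p = 0.00330) at that floor but -0.12 with normexp background correction (limma adjusted p = 0.692), and the difference of mTECs from cTECs, 0.067, became -0.46 without cTEC replicate 1. A fit of the mTEC and CD45+ arrays alone, with the floor of 223 that their own limits give, was added after the data had been seen and gave -1.29 (limma adjusted p = 7.03e-05). Within slide rows 1 and 2 the difference between mTECs and CD45+ cells at the floor of 129 was -1.38 and -1.45. In the authors' quantile-normalized table the log2 values were 11.68, 11.71 and 11.73 in CD45+ cells and 11.47, 11.36 and 11.44 in mTECs. In cTECs they were 11.33 and 11.34, again without overlap between CD45+ and the other arrays. There miR-205*, the star strand of miR-205, not well above background on any array, lay between 11.29 and 11.38. Whether such a background makes the folds smaller was not tested.

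**Figure D2:**
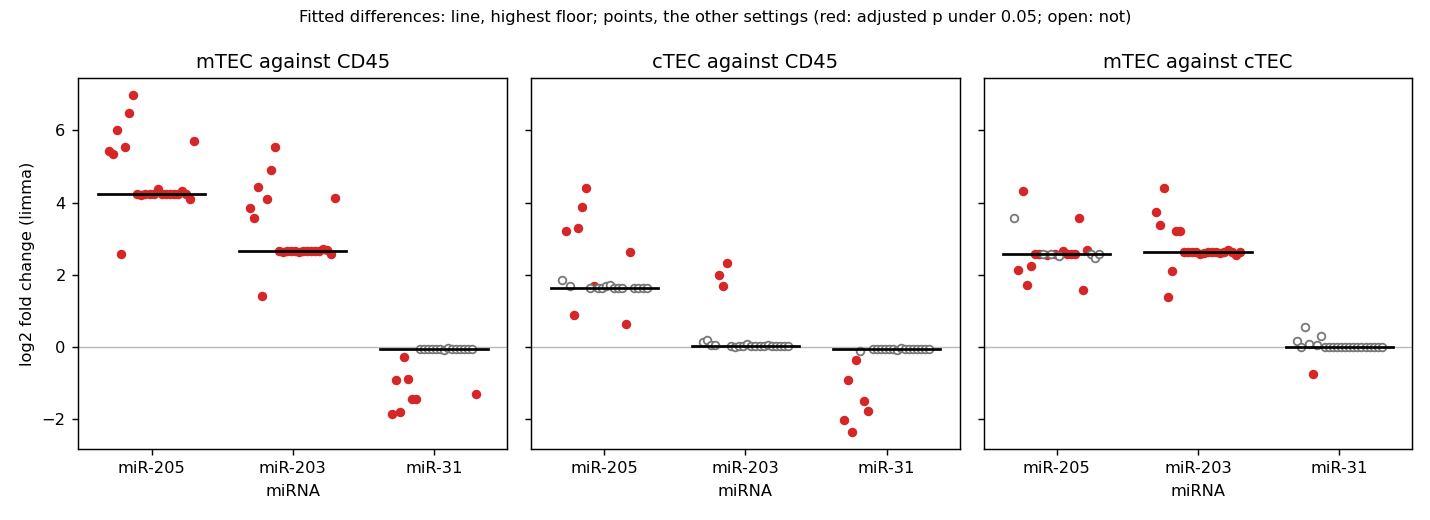
Log2 fold changes of the 3 miRNAs in each comparison, fitted with limma. The black line is the fit with the floor of 621 and each point another setting of the processing, red where the adjusted p was under 0.05 and open where it was not. For miR-31 the points for mTECs against CD45+ cells lie below 0 and reach -1.85, while miR-203 and miR-205 stay above 0 there in every setting shown.

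Counted together, 2 of the 3 members passed between mTECs and CD45+ cells at the floor of 621, where 23.9% of all 309 miRNAs passed. Between cTECs and CD45+ cells 0 of 3 passed, against 30.7% of all, and between mTECs and cTECs 2 of 3, against 22.7%. With the floor of 129 the counts were 3 of 3 against 37.2%, 3 of 3 against 64.7%, and 2 of 3 against 42.1%. In the fit of mTEC and CD45+ arrays alone with their own floor, 3 of 3 passed against 39.8% of all. At the lower floor most miRNAs passed between cTECs and CD45+ cells, and miR-203 and miR-31 passed there without being well above background on either cTEC array.

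The star strand of miR-31, miR-31-3p, was read by a probe of its own and is shown because its signals lay in the same order between CD45+ cells and mTECs.
miR-31-3p: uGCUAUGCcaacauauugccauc
Its seed, in capitals, is shared with 0 of 1678 other mouse mature miRNAs. The scaled signal of miR-31* was 124, 132 and 120 on the CD45+ arrays and 46.7, 75.7 and 36.8 on the mTEC arrays, and these groups did not overlap. On the cTEC arrays it was 59.9 and -32.1. Most spots were well above background on 1 of the 8 arrays, CD45+ replicate 2, and over all CD45+ arrays 8 of 15 spots were, against 0 of 15 in mTECs and 0 of 9 in cTECs. The probe did not enter the test. The star probes of miR-205 and miR-203 were well above background on 0 of 8 arrays. miR-205* had between 27.2 and 39.8 on CD45+ arrays, between 45.8 and 115 on mTEC arrays and 113 and 341 on cTEC arrays, and miR-203* had between 32.0 and 51.8, between 70.2 and 118, and 147 and 374; none of these signals was separated from background on most of its spots.

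**Figure D3:**
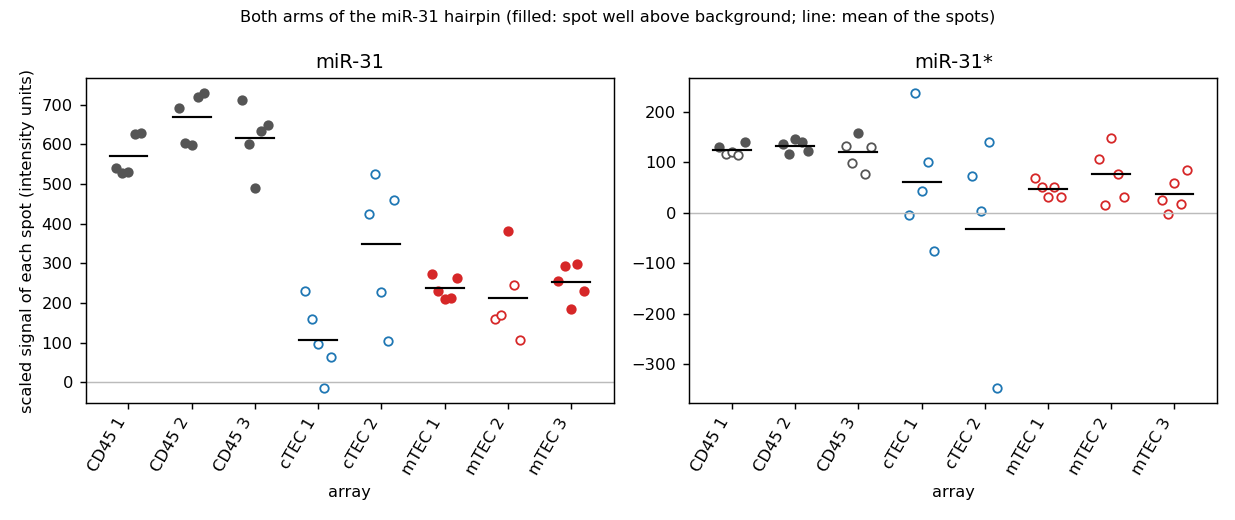
Scaled signal (intensity units) of each spot of the miR-31 and miR-31* probes on the 8 arrays. Filled points are spots well above background, open points the others, and lines the mean of a probe's spots. For both arms the means of the spots are highest on the CD45+ arrays.

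Lymphocyte miRNAs moved with miR-31. The summed signal of the fixed list of 6 was 25991 to 30137 on CD45+ arrays, 4103 to 5861 on cTEC arrays and 3368 to 4742 on mTEC arrays. In mTECs 5 of the 6 were lower than in CD45+ cells at the floor of 621, where 46 of all 309 miRNAs were lower, and in cTECs 6 of 6, where 62 of 309 were, with 4 of the 6 still well above background on every mTEC array and 3 on both cTEC arrays. The myeloid miRNA miR-223 had 785 to 902 on CD45+ arrays, 110 to 147 on mTEC arrays, and 137 and 597 on cTEC arrays. The part of these cells in the miR-31 signal of the TEC sorts was not tested.

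Epithelial miRNAs moved with miR-205 and miR-203. Of 8 other epithelial miRNAs, the miR-200 family and the miR-183 cluster, 6 were higher in mTECs than in CD45+ cells at the floor of 621 and 0 lower, with a median log2 fold change of 2.16 against 0 over all 309, of which 28 were higher. Between cTECs and CD45+ cells 1 of the 8 was higher, miR-200c, against 33 of 309. At the floor of 129 it was 7 of the 8 there, with a median of 1.62, against 119 of 309 with a median of 0.65. Between mTECs and cTECs 6 of the 8 were higher at the floor of 621, against 50 of 309. miR-200c, which like miR-205 targets ZEB1, had scaled signals of 8216, 8074 and 6606 in mTECs, 1636 and 946 in cTECs, and 149, 153 and 121 in CD45+ cells. miR-183 and miR-96 did not pass between mTECs and CD45+ cells (limma adjusted p = 0.211 and 0.345) at signals near the floor, and both passed at the floor of 129.

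A further 8 miRNAs studied in skin, cornea or other squamous epithelium did not all lie on one side. Between mTECs and CD45+ cells 2 were higher and 1 lower, with a median log2 fold change of 0, between cTECs and CD45+ cells 1 was higher and 4 lower, with a median of -0.70, and between mTECs and cTECs 4 were higher and 0 lower, with a median of 0.37; over all 309 each median was 0. The counts over all 309 were 28 higher and 46 lower, 33 and 62, and 50 and 20. These splits moved with the scaling and with cTEC replicate 1. Between mTECs and cTECs they became 44 higher and 164 lower with normexp, 38 and 1 when scaled to every mouse probe, 73 and 0 unscaled, and 47 and 100 without cTEC replicate 1. Between cTECs and CD45+ cells they became 199 and 52, 6 and 114, 2 and 111, and 110 and 60 in the same order, and between mTECs and CD45+ cells 61 and 51 with normexp and 18 and 92 when scaled to every mouse probe. At the floor of 129 the list's median between mTECs and cTECs was 1.61, with 5 higher, against -0.31 over all. miR-125b-5p, expressed in hair follicle stem cells, was higher in both mTECs (log2 fold change 3.20, limma adjusted p = 5.98e-05) and cTECs (3.41, limma adjusted p = 7.76e-05) than in CD45+ cells. miR-34a, a target of p53, was higher in mTECs than in CD45+ cells (log2 fold change 1.84, limma adjusted p = 1.66e-04) but lower in cTECs (-1.56, limma adjusted p = 5.00e-04). miR-27b was lower in both mTECs (log2 fold change -0.66, limma adjusted p = 0.00137) and cTECs (-1.40, limma adjusted p = 7.76e-05), and in mTECs it did not pass at the floor of 129 (limma adjusted p = 0.0731). miR-21, abundant in activated lymphocytes and in epithelium, had a log2 fold change against CD45+ cells of -0.78 in mTECs (limma adjusted p = 0.0530, and 0.0370 at the floor of 129) and -3.80 in cTECs (limma adjusted p = 7.76e-05).

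Fixed lists for other cells of the thymic stroma were also read. The summed signal of the 5 mesenchyme miRNAs was 189 to 301 on CD45+, 2232 to 5117 on cTEC and 6294 to 6660 on mTEC arrays, of which miR-143 and miR-145 made up most in cTECs and mTECs, whereas miR-199a-3p and miR-199a-5p were not well above background on any array. The 2 endothelial miRNAs summed to 212 to 295, 1527 to 2755 and 497 to 550. The 2 red cell miRNAs summed to 87.0 to 129, 198 to 940 and 116 to 228. The part of these cells in the signals of the 3 members was not tested.

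Over the 8 arrays, the miRNAs whose log2 signal at the floor of 621 was most like that of miR-205 were miR-200c (Pearson's r = 0.98), miR-145 (0.97), miR-200b (0.96), miR-143 (0.93) and miR-200a (0.93), out of 225 that varied. For miR-203 they were miR-182 (0.999), miR-194 (0.997), miR-375 (0.997), miR-200a (0.99) and miR-148a (0.99). For miR-31 they were miR-17* (0.94), miR-142-5p (0.91), miR-361 (0.89), miR-181c (0.89) and miR-15a (0.85). At this floor the log2 signal of miR-31 was 9.28 on every TEC array and 9.28, 9.40 and 9.34 on the CD45+ arrays. The order of its neighbours therefore rests on small differences near the floor. With the floor of 129 and 308 miRNAs compared, the nearest to miR-205 were miR-145, miR-200c and miR-200b, the nearest to miR-203 miR-375, miR-429 and miR-182, and the nearest to miR-31 miR-361 (0.97), miR-181c (0.97) and miR-677* (0.97). Among the members, r at the floor of 129 was 0.95 between miR-205 and miR-203, -0.90 between miR-205 and miR-31 and -0.72 between miR-203 and miR-31. These values describe 8 arrays in 3 groups that share scaling and floor, so that differences between the groups enter them. How much of each value these differences set was not tested.

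**Figure D4:**
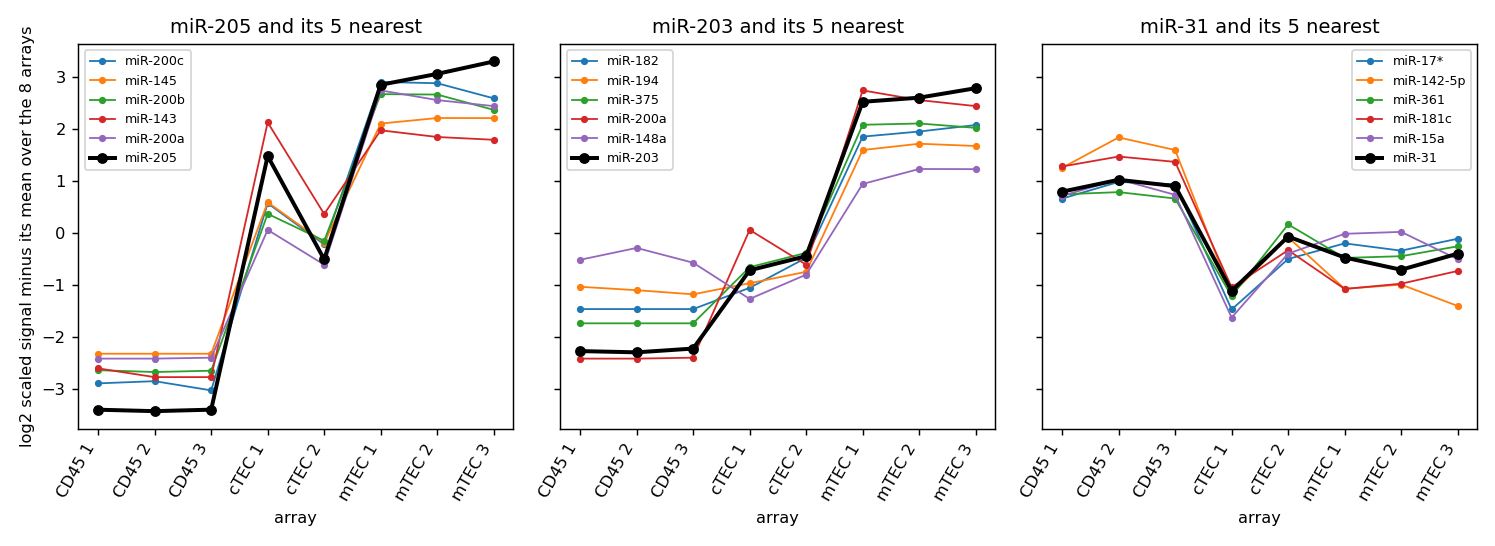
Log2 scaled signal at the floor of 129, minus each miRNA's mean over the 8 arrays, for each member (black) and the 5 miRNAs most like it at the floor of 621. Lines join the arrays of one miRNA and carry no order. The neighbours of miR-205 are higher on cTEC replicate 1 than on replicate 2, as miR-205 is, and those of miR-31 are highest on the CD45+ arrays. Since the neighbours were chosen by correlation over these same 8 arrays, the choice partly sets this likeness.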

How the data were processed

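Each of the 8 RNA preparations (CD45+ cells 3, cTECs 2, mTECs 3) was measured on its own single-colour array. The authors deposited each array's scanner output (spot intensity, with background subtracted by Feature Extraction 10.7.3.1 per the file headers) and a table of quantile-normalized log2 intensity for 1040 mouse probes. The 15 columns of the table with the authors' own comparisons (fold changes, p-values, FDR and log odds) were not used. limma is named in the submitters' processing notes without a version.

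The analysis used R 4.3.3 and limma 3.58.1. Outlier spots, by the scanner's flags, were left out; 0 mouse spots were saturated. Arrays were scaled to the 75th percentile of 65 probes, floored and averaged over spots on the log2 scale; 83 of the 309 tested miRNAs lay at the floor on every array and entered the adjustment as not different. The steps were tested on simulated data. The members, lists, floor and tests were chosen with earlier results of these data known. miRNAs were named by a fixed rule: the members, their star strands, the fixed lists and the 5 miRNAs most like each member. The 3 floors, other scalings, normexp with an offset of 50, filters, blocks and each array left out were compared. Positions are those of RefSeq on GRCm38.p6; the deposited table's positions name no build and are not given.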

Additional observations from a re-analysis of the deposited data

How the results depend on the processing

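The differences of miR-205 and miR-203 between mTECs and CD45+ cells kept direction and call in every alternative in which they were tested. So did that of miR-203 between mTECs and cTECs. With the filter on all 8 arrays no member was tested. Fits without a cTEC replicate leave 1 cTEC array and take the spread from the other groups. The members' calls in comparisons with cTECs are therefore not counted in these fits. miR-31 between mTECs and CD45+ cells, not past the threshold at the floor of 621, passed with the 75th percentile over all probes (-1.85), quantile normalization (-0.92), unscaled arrays (-1.80), the deposited table (-0.28), normexp (-0.87), the floors of 129 (-1.43) and 67.0 (-1.45) and, added after seeing the data, both groups alone with their own floor (-1.29). Between cTECs and CD45+ cells it passed with these in the same order (-2.02, -0.92, -2.35, -0.37, -1.50 and -1.76) but not with normexp (-0.12) or their own floor. Between mTECs and cTECs it passed with normexp alone (-0.75). At the floor of 129 each array was also left out, an alternative added after seeing the data. miR-31 between mTECs and cTECs then ran from -0.46 without cTEC replicate 1 to 0.59 without cTEC replicate 2. The other members' calls at that floor held with each CD45+ or mTEC array left out. miR-31 stayed between -1.49 and -1.34 between mTECs and CD45+ cells, and between -2.02 and -0.97 between cTECs and CD45+ cells. miR-205 between cTECs and CD45+ cells passed with quantile normalization (3.22), the deposited table (0.88), normexp (3.29), the floors of 129 (3.89) and 67.0 (4.39) and the median of the spots (1.68). Its fold change ran from 0.65 without cTEC replicate 1 to 2.63 without cTEC replicate 2. miR-203 between cTECs and CD45+ cells passed with normexp (2.00) and the floors of 129 (1.68) and 67.0 (2.31). miR-205 between mTECs and cTECs lost its call with the 75th percentile over all probes (3.57), no filter (2.58), both groups alone with either floor (2.58 and 2.58) and the replicate block (2.52, limma adjusted p = 0.0639), and ran from 1.59 to 3.57 with each array left out. Deviations of same-numbered arrays correlated from -0.23 to 0.28 and of others from -0.35 to 0.29. These values cannot decide whether the replicate numbers pair the samples, since the groups are small and the deviations of the 2 cTEC arrays mirror each other. The replicate block changed no other member's call. The count of miRNAs passing, 74 between mTECs and CD45+ cells, became 121 with the deposited table, 112 with normexp, 115 and 140 with the floors of 129 and 67.0, 31 with the filter on all 8 arrays and 123 with the own floor. The 95 between cTECs and CD45+ cells became 251 with normexp, 200 and 224 with the lower floors, 53 with the filter, and 82 to 170 with each array left out, the highest without cTEC replicate 1. The 70 between mTECs and cTECs became 39 with the 75th percentile over all probes, 208 with normexp, 130 and 129 with the lower floors, 38 with the filter, and 58 to 147 with each array left out, the highest without cTEC replicate 1. The median over all 309 miRNAs moved to 0.31, 1.37 and -1.01 in the 3 comparisons with normexp and to 0.45, 0.86 and -0.33 with the floor of 67.0. Beyond the floors and the filters, whose construction sets the values, the cause of these changes was not tested. The higher counts without cTEC replicate 1 rest on 1 cTEC array. The dim cTEC arrays limit what can be said of miR-203 and miR-31 in cTECs.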
